A study of Mus musculus with 12 samples.

Results

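The levels of 10 transcription factor genes were followed in primary mouse skin fibroblasts, namely the FOS family members Fos, Fosb, Fosl1 and Fosl2, the JUN family members Jun, Junb and Jund, the related bZIP gene Atf3, and the zinc finger genes Egr1 and Egr2. They are 10 of the 21556 genes in the deposited count table, and were picked by their family with results of these data already known, so the number of them that passed a test is a description and supports nothing about the families. The study sequenced 12 RNA libraries, 3 in each of 4 groups, labelled as biological replicates. WT control and Nox4 KO control fibroblasts were left without the growth factor, and WT and Nox4 KO fibroblasts of the other groups received TGF-β2 at 10 ng/ml for 24 h, after all cells had been starved for 24 h. The cells came from abdominal skin. The labels give the strain as C57BL/6, and the study's methods name a Nox4 line targeted on a B6.129 background, bred as separate WT and Nox4 KO litters from littermate founders. The age of the mice that gave the cells, and whether skin of several mice was pooled, are not given in the sources used here.

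The AP-1 factor is a dimer. FOS proteins pair with JUN proteins and bind a short palindrome in promoters and enhancers, whereas JUN proteins can also pair with one another or with ATF proteins and then bind the cyclic AMP response element. EGR proteins bind a GC-rich site through zinc fingers and are held back by the NAB corepressors. Many of these genes are immediate early genes, switched on within minutes of a growth factor through the serum response factor, and in fibroblasts AP-1 acts beside SMAD proteins on genes that respond to TGF-β. A sample taken after a day shows what remains or returns once that first burst has passed.

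The bases just upstream of 4 of the genes are shown because these 4, Fos, Fosb, Junb and Egr2, were the ones that passed the test with a fold change of at least 2 in WT fibroblasts. They are taken from the RefSeq promoter table (GRCm38.p6), 5′ to 3′ on the strand of the gene, and end at the base before the RefSeq start, except that the last 6 bases before the Fosb start lie in an annotated exon and were left out. Capitals mark 3 kinds of match, searched on both strands: the CRE core TGACG, the EGR site GCGNGGGCG and the CArG box, which the serum response factor binds.
Fos, chr12:85473640-85473889, plus strand: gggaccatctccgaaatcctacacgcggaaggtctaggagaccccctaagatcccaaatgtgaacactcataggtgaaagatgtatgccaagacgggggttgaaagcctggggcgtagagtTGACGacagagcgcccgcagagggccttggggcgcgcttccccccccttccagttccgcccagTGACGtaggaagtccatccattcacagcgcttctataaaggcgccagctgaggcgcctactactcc
Fosb, chr7:19310052-19310295, minus strand: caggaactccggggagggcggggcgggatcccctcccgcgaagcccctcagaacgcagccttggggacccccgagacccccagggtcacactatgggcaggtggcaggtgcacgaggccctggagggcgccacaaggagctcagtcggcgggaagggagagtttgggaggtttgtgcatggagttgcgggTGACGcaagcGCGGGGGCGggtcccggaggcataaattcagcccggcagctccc
Junb, chr8:84978749-84978998, minus strand: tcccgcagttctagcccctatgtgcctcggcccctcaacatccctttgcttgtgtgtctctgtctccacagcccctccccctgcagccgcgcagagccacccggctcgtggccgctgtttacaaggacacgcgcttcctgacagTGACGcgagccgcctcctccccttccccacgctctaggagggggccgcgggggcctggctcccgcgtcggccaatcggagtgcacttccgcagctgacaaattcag
Egr2, chr10:67537619-67537868, plus strand: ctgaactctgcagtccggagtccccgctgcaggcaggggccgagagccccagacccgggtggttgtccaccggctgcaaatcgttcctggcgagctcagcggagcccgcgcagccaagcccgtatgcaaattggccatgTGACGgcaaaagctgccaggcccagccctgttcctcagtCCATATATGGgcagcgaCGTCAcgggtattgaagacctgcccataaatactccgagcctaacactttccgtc

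The Fos stretch held 2 CRE cores, the Fosb stretch a CRE core followed by an EGR site, the Junb stretch 1 CRE core, and the Egr2 stretch a CArG box between 2 CRE cores. The Egr2 stretch lies in an intron of longer Egr2 transcripts and upstream of the third of 5 RefSeq entries of the gene. Among the 32851 RefSeq windows of 250 bases, 17.8% held a CRE core, 4.7% an EGR site and 1.47% a CArG box. Windows were used for 8 of the 10 genes, in 12 entries. Fosl1 had no promoter entry in the source used, and Egr1 was not analysed here. A CArG box stood in 4 of the 5 Egr2 entries, of which 3 overlap and share the same box, and in no window of the other genes analysed, and an EGR site stood in the windows of Fosb and Fosl2. Neither the AP-1 site TGANTCA, held by 6.75% of all windows, nor the full CRE TGACGTCA, held by 1.55%, matched in any of the 12. The same was found for the ETS core CCGGAAGT, held by 2.88% of all windows, and the SMAD palindrome GTCTAGAC, held by 0.167%. These are matches of letters in 250 bases and say nothing of binding or of sites further upstream, which were not searched. The windows of Jund and Atf3 do not adjoin the outer start of the annotated gene.

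The total count per library was between 35118344 and 43796260. Nox4 itself, the targeted gene, was still counted in the Nox4 KO libraries, at 0.636 to 1.4 RPKM (counts scaled to the library total and to the length of the merged exons) in control and 4.39 to 6.85 RPKM after TGF-β2, against 1.31 to 2.42 and 8.56 to 16.3 RPKM in WT. All 9 fibroblast markers had a mean of at least 1 RPKM in every group. Their sum per library was 6643 to 7337 RPKM in WT control and 5464 to 6463 RPKM after TGF-β2. In Nox4 KO it was 6728 to 8035 RPKM in control and 5830 to 6680 RPKM after TGF-β2. None of the 5 keratinocyte, 4 adipocyte or 6 Schwann and melanocyte markers reached a mean of 1 RPKM in any group. Krt1 was at 0 in both WT groups and in Nox4 KO control, where Krt5 was at 0 as well. In every group 1 of 5 endothelial markers did, with sums of 1.68 to 5.38 RPKM. For skeletal muscle 2 of 5 reached that mean, and the sum of the 5 went from 42.5 to 110.3 RPKM in control up to 256.2 to 616.1 RPKM after TGF-β2. Of these 5, Myod1 was at 0 in every stimulated library of both genotypes, and Ckm in every WT control library. For myeloid cells 5 of 6 reached that mean in 3 groups and 4 of 6 in stimulated Nox4 KO, none of them at 0 in a whole group. They summed to 23.9 to 108.4 RPKM per library in WT control and 19.6 to 73.7 RPKM after TGF-β2. In Nox4 KO the sums were 18.9 to 83.0 RPKM in control and 12.4 to 59.7 RPKM after TGF-β2. These sums stand beside every TGF-β2 result below. Whether cells of these other kinds were present, and their part in the results, was not tested. The third Nox4 KO replicate had the lowest level of its group for 8 of the 10 genes in control and for 9 of the 10 after TGF-β2. It was not alone in this. In stimulated WT the second library was lowest for 8 of the 10 genes and the third highest for 8. By counts after TMM scaling, the second Nox4 KO control was highest for all 10. How often this holds over all genes was not counted.

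Fosl2 had the highest level of the set in resting WT fibroblasts, at 43.2 ± 1.88 RPKM (SD, n = 3). Junb followed at 23.8 ± 3.46 RPKM, Jund at 23.0 ± 0.195 RPKM and Jun at 16.7 ± 1.16 RPKM. Egr1 stood at 8.90 ± 1.14 RPKM, above Fos at 4.20 ± 0.972 RPKM and Egr2 at 3.87 ± 0.191 RPKM. The lowest were Atf3 at 2.65 ± 2.02 RPKM, Fosl1 at 2.57 ± 0.245 RPKM and Fosb at 0.813 ± 0.260 RPKM. In this order the libraries of Junb and Jund overlapped, as did those of Fos and Egr2, and those of Atf3 overlapped with Fos, Egr2 and Fosl1. All other neighbours were separate. In bulk RNA, a change in the number of cells that express a gene and a change in RNA per cell cannot be told apart, which holds for every value here.

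**Figure D1:**
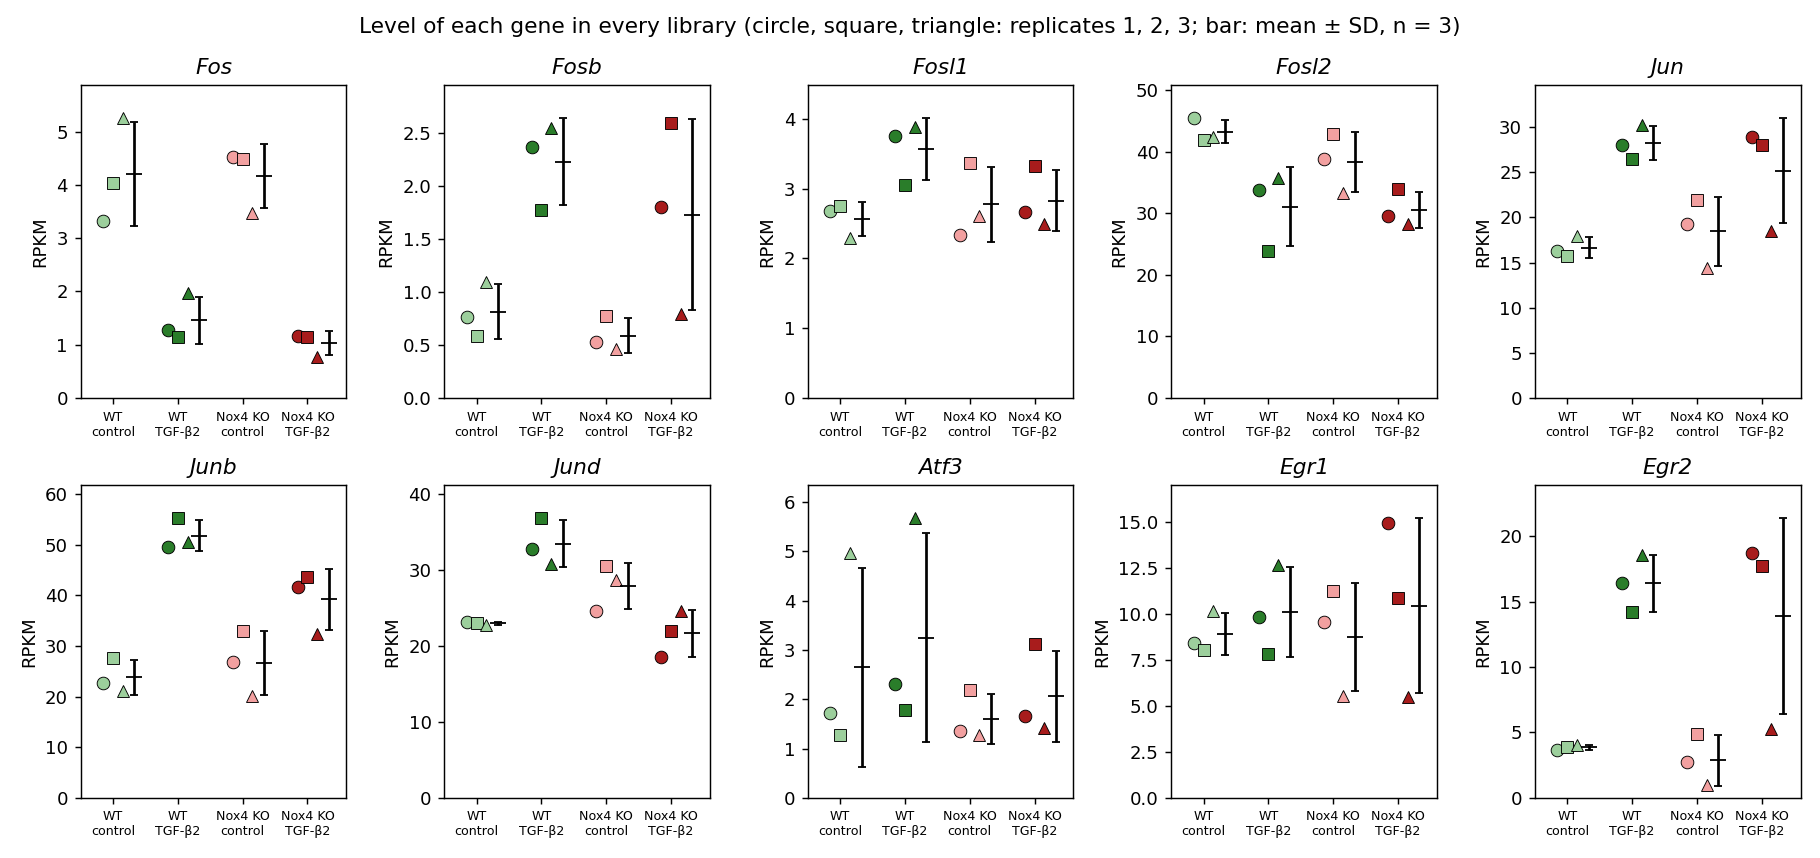
Level of each of the 10 genes in every library, in RPKM on a linear axis that starts at 0, with 1 panel per gene and the mean ± SD (n = 3) beside the points. Egr2 rose in WT from 3.67 to 4.05 RPKM up to 14.2 to 18.6 RPKM, Fos fell, and the triangle of Nox4 KO (replicate 3) stood lowest in its group for most genes.

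TGF-β2 moved the set in both directions in WT fibroblasts. Egr2, Fosb, Junb, Jun and Jund rose and Fos fell, while Fosl1, Fosl2, Atf3 and Egr1 did not pass. These 6 of 10 genes passed edgeR's quasi-likelihood test at a Benjamini-Hochberg adjusted p under 0.05, a threshold that 22.9% of the 10743 genes tested passed, 10.6% higher and 12.3% lower. With a fold change of at least 2 as well, 4 of the 10 passed, 3 higher and 1 lower, against 7.74% of all genes, 2.64% higher and 5.1% lower. At an unadjusted p under 0.05 there were 8 of the 10 and 37.8% of all genes. The median log2 fold change of the 10 was 0.55, against 0.00 for all genes tested. The groups of 3 did not overlap for 8 of the 10, higher for 6 and lower for 2, as was so for 46.7% of all genes tested, 25.4% higher and 21.2% lower.

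Egr2, which encodes a zinc finger activator of the EGR family, had the largest change of the set. Its level was 3.67, 3.89 and 4.05 RPKM in the WT control libraries and 16.4, 14.2 and 18.6 RPKM after TGF-β2. Every stimulated library was thus above every control. The rise was 4.36-fold (log2 fold change 2.13 ± 0.128, SE, edgeR adjusted p = 0.000367). Egr1, the best known gene of the family and an immediate early responder to serum, stood at 8.45, 8.05 and 10.2 RPKM in control and at 9.85, 7.80 and 12.7 RPKM after TGF-β2. Its groups overlapped, and the log2 fold change of 0.23 had a 95% interval from −0.22 to 0.68.

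Fos and Fosb went opposite ways. Fos, the founding member and a short-lived activator, had 3.32, 4.04 and 5.25 RPKM in WT control and 1.27, 1.14 and 1.96 RPKM after TGF-β2. All stimulated libraries were below all controls, and the gene fell 2.80-fold (log2 fold change −1.48 ± 0.256, SE, edgeR adjusted p = 0.00856). Fosb, which also gives rise to a truncated ΔFosB protein, went from 0.760, 0.583 and 1.10 RPKM to 2.37, 1.77 and 2.55 RPKM. It rose 2.83-fold (log2 fold change 1.5 ± 0.257, SE, edgeR adjusted p = 0.00834), and its counts of 84 to 167 per control library were the lowest base of any gene that passed.

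The FOS-related antigens did not pass in WT, although their groups did not overlap. Fosl1, which encodes FRA1, had 2.67, 2.74 and 2.29 RPKM in control and 3.75, 3.06 and 3.88 RPKM after TGF-β2, with a log2 fold change of 0.51 with a 95% interval from 0.11 to 0.91 (edgeR adjusted p = 0.0692). Fosl2, which encodes FRA2, had 45.4, 41.9 and 42.5 RPKM in control and 33.8, 23.8 and 35.7 RPKM after TGF-β2, with a log2 fold change of −0.43 with an interval from −0.83 to −0.03 (edgeR adjusted p = 0.109). The second stimulated library was the lowest of its group for both. Without it both passed, Fosl1 with a log2 fold change of 0.62 (edgeR adjusted p = 0.0251) and Fosl2 with one of −0.26 (edgeR adjusted p = 0.0433). With any other library left out neither did, and the edgeR adjusted p went up to 0.214 and 0.278.

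All 3 JUN genes rose in WT. Jun, which encodes c-JUN, had 16.3, 15.7 and 18 RPKM in control and 28.1, 26.5 and 30.2 RPKM after TGF-β2, a 1.75-fold rise (log2 fold change 0.80 ± 0.0925, SE, edgeR adjusted p = 0.00222). Junb, whose protein is a weaker activator that can oppose c-JUN, had 22.6, 27.7 and 21.1 RPKM and then 49.6, 55.3 and 50.6 RPKM, a 2.23-fold rise (log2 fold change 1.16 ± 0.128, SE, edgeR adjusted p = 0.00195). Jund, the JUN gene that quiescent cells express steadily, had 23.2, 23.1 and 22.8 RPKM and then 32.8, 36.8 and 30.7 RPKM, a 1.49-fold rise (log2 fold change 0.58 ± 0.0944, SE, edgeR adjusted p = 0.00721).

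Atf3, a stress-induced gene whose protein dimer usually represses, differed more between replicates than between conditions. It had 1.72, 1.27 and 4.96 RPKM in WT control and 2.31, 1.77 and 5.68 RPKM after TGF-β2, so that the third WT replicate was the high one in both. Its log2 fold change was 0.34, with a 95% interval from −1.11 to 1.80. The summed myeloid markers were also highest in the third WT replicate, at 108.4 RPKM in control and 73.7 RPKM after TGF-β2, against 19.6 to 41.5 RPKM in the other WT libraries, and their part in the Atf3 values was not tested.

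**Figure D2:**
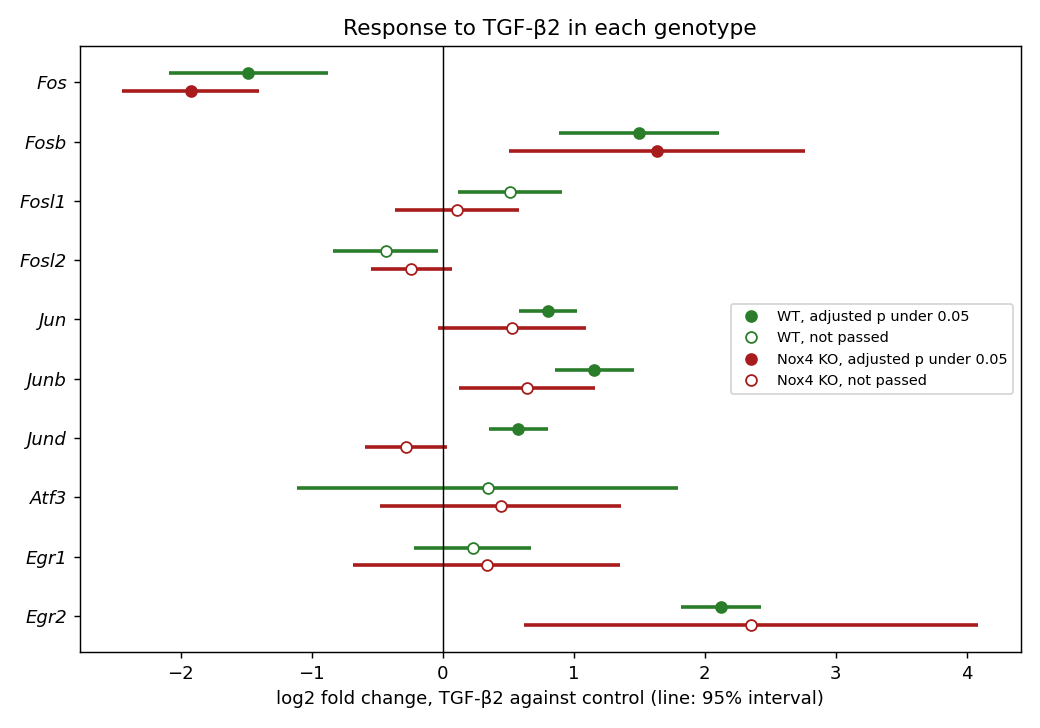
Log2 fold change after TGF-β2 of each gene (points) with its 95% interval (lines), WT in green and Nox4 KO in red, filled where the edgeR adjusted p was under 0.05. The Nox4 KO intervals are wide for Egr2 (0.62 to 4.09) and Fosb (0.51 to 2.77), and Jund lies on opposite sides of 0 in the 2 genotypes.

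In Nox4 KO fibroblasts TGF-β2 lowered Fos and raised Fosb, and no other gene of the set passed the edgeR test on separate groups. That is 2 of 10, where 30.3% of the 10809 genes tested passed, 15.2% higher and 15% lower. Both had a fold change of at least 2, as had 6.82% of all genes, 2.22% higher and 4.6% lower. At an unadjusted p under 0.05 there were 4 of the 10 and 43.9% of all genes. Over the 10 the median log2 fold change was 0.39, against −0.01 for all genes. The groups did not overlap for 4 of the 10, higher for Egr2, Fosb and Junb and lower for Fos, as for 49.4% of all genes tested, 28.8% higher and 20.6% lower. Over all genes, deviations from the group mean correlated between Nox4 KO libraries of the same number, at 0.763, 0.688 and 0.741. The numbers were taken as pairs on that ground alone, though not every gene followed it. With the replicate number as a block, 8 of the 10 passed, namely Egr2, Fosb, Jun, Junb and Atf3 higher and Fos, Fosl2 and Jund lower, and the number of all genes that passed went from 3270 to 5832.

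Fos had 4.52, 4.49 and 3.47 RPKM in the Nox4 KO controls and 1.17, 1.15 and 0.776 RPKM after TGF-β2. The groups were well apart, and the gene fell 3.80-fold (log2 fold change −1.93 ± 0.215, SE, edgeR adjusted p = 0.00382). Fosb had 0.532, 0.773 and 0.458 RPKM and then 1.81, 2.59 and 0.796 RPKM. The third stimulated library was barely above the highest control, and the 3.11-fold rise (log2 fold change 1.64 ± 0.465, SE) had an edgeR adjusted p = 0.0428. Fosb no longer passed when any of 5 libraries other than the third stimulated one was left out, with log2 fold changes of 1.22 to 1.91 and edgeR adjusted p between 0.0763 and 0.131.

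Egr2 missed the threshold although its fold change was of the same order as in WT. Its level was 2.76, 4.88 and 0.939 RPKM in the Nox4 KO controls and 18.7, 17.7 and 5.26 RPKM after TGF-β2. The third replicate was the lowest in both groups, and its stimulated level was only a little above that of the second control. The log2 fold change was 2.35 ± 0.713 (SE, edgeR adjusted p = 0.0511), and 2.42 with the replicate block (edgeR adjusted p = 0.000533). Within replicate numbers the difference in log2(CPM + 0.5) was 2.81, 1.94 and 2.44, where CPM are counts scaled to the library total after TMM scaling. Without the third replicate of both groups, an alternative chosen after seeing the data, Egr2 passed with a log2 fold change of 2.33 (edgeR adjusted p = 0.00705), and 5 of the 10 genes passed, while the number of all genes that passed went from 3270 to 4239. Over the 14 alternatives other than leaving out 1 library, the adjusted p of Egr2 was between 0.000424 and 0.0553. Egr1 was likewise low in the third replicate, at 5.53 against 9.55 and 11.2 RPKM in control and at 5.48 against 15.0 and 10.9 RPKM after TGF-β2. The third Nox4 KO replicate also had the lowest myeloid marker sums, at 18.9 RPKM in control and 12.4 RPKM after TGF-β2, against 22.1 to 83.0 RPKM in the other Nox4 KO libraries, and their part in these values was not tested.

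The JUN genes were less uniform in Nox4 KO than in WT. Jun had 19.2, 21.9 and 14.4 RPKM in control and 29.0, 28.1 and 18.5 RPKM after TGF-β2, with a log2 fold change of 0.53 (edgeR adjusted p = 0.132, or 0.00179 with the replicate block). Junb had 26.9, 32.9 and 20.1 RPKM and then 41.7, 43.7 and 32.3 RPKM, a log2 fold change of 0.64 (edgeR adjusted p = 0.0662, or 0.00138 with the block). The third stimulated Junb library lay just under the second control on this scale. Jund had 24.6, 30.6 and 28.7 RPKM and then 18.5, 21.9 and 24.6 RPKM, a log2 fold change of −0.28 (edgeR adjusted p = 0.147, or 0.0207 with the block). Over the same 14 alternatives the adjusted p was 0.00115 to 0.172 for Jun, 0.000311 to 0.0867 for Junb and 0.0207 to 0.883 for Jund.

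The remaining FOS genes and Atf3 had small differences in Nox4 KO. Fosl1 had a log2 fold change of 0.11 with a 95% interval from −0.36 to 0.58, and did not pass with the block either. Fosl2 had 38.9, 42.9 and 33.2 RPKM and then 29.6, 33.9 and 28.3 RPKM, a log2 fold change of −0.24 (edgeR adjusted p = 0.195, or 0.0148 with the block). Atf3 had 1.3, 2.19 and 1.28 RPKM and then 1.66, 3.12 and 1.41 RPKM, a log2 fold change of 0.44 (edgeR adjusted p = 0.407, or 0.0306 with the block). Over the 14 alternatives the adjusted p was 0.0117 to 0.388 for Fosl2 and 0.0161 to 0.573 for Atf3. The second replicate was the high one for Atf3 in both groups, where in WT it had been the third.

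**Figure D3:**
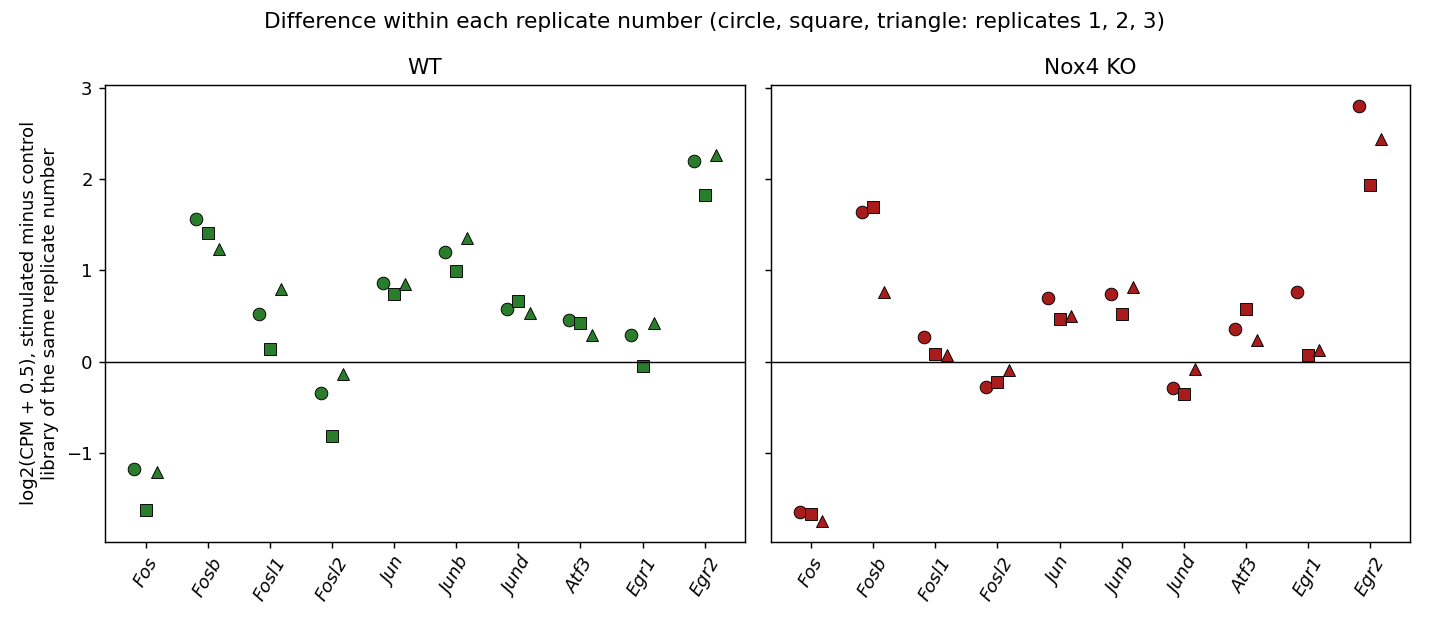
Difference in log2(CPM + 0.5) between the stimulated and the control library of the same replicate number, for each gene, in WT (left) and Nox4 KO (right). In Nox4 KO the 3 differences of Egr2 were 2.81, 1.94 and 2.44 and those of Jund −0.29, −0.36 and −0.08; pairing by number was not established in WT, whose differences are shown for the same view.

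Resting Nox4 KO and WT fibroblasts were compared to ask whether the gene set differed before stimulation. None of the 9 genes tested passed edgeR's quasi-likelihood test, as none of all 10767 genes did (0%). Fosb was under the limit of 1 RPKM and was not tested, with counts of 63 to 122 in Nox4 KO and 84 to 167 in WT. At an unadjusted p under 0.05 there was 1 gene of the set, Jund, and 5.54% of all genes, while DESeq2 passed 0 of the set and 28 genes in all. Jund had a log2 fold change of 0.24 with a 95% interval from 0.02 to 0.46, and its Nox4 KO libraries were all above the WT libraries, as was so for 5.45% of all genes, with 6.58% lower and 12% in either direction. With the GC offsets described below, the log2 fold change of Jund was 0.077 with a robust and 0.054 with a least-squares curve. The widest intervals were those of Atf3, from −2.03 to 0.54, and Egr2, from −1.71 to 0.79, so that these data leave room for differences of those sizes.

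After TGF-β2 none of the 10 genes differed between Nox4 KO and WT by the edgeR test, again as for all 10439 genes tested (0%). Jund and Junb were the 2 genes of the set with an unadjusted p under 0.05, which 3.22% of all genes had. DESeq2 passed 1 of the set, Jund (adjusted p = 0.0322), and 16 genes in all. Both genes had every Nox4 KO library below every WT library, as had 6.08% of all genes tested, with 4.29% higher and 10.4% in either direction. The log2 fold change of Jund was −0.60 with a 95% interval from −0.90 to −0.31 (edgeR unadjusted p = 0.00212, adjusted p = 0.835), and that of Junb −0.38 with an interval from −0.69 to −0.07 (edgeR adjusted p = 0.835). With GC offsets Jund was at −0.37 or −0.32 and Junb at −0.25 or −0.23. Egr1 and Fosl2 lay near 0, at 0.07 and −0.01.

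Whether TGF-β2 acted differently in the 2 genotypes was tested by the interaction over all 12 libraries. None of the 10 genes passed the edgeR test, nor did any of the 10890 genes (0%). At an unadjusted p under 0.05 there was 1 of the 10, Jund, and 2.66% of all genes. Jund, which earlier results of these data had already singled out, had the smallest p of the whole table, with an interaction of −0.84 on the log2 scale (SE 0.161, 95% interval −1.20 to −0.49, edgeR unadjusted p = 0.000303, adjusted p = 0.850). DESeq2 passed 6 genes in all and 1 of the set, Jund, at −0.86 (adjusted p = 0.00606). With the replicate block the edgeR adjusted p of Jund was 0.138, and over 13 alternatives it was between 0.00606 and 0.997. Leaving out any 1 of the 12 libraries kept the interaction between −0.94 and −0.74. Junb followed at −0.50 with a 95% interval from −1.07 to 0.07, and Fos at −0.43 with an interval from −1.21 to 0.35. The intervals of Atf3 (−1.67 to 1.89), Egr2 (−1.40 to 1.88) and Fosb (−1.09 to 1.39) reach beyond a doubling or halving of the response.

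Jund is also the gene of the set with the most G and C bases. Its longest protein-coding transcript held 67.2% G and C, above 99.9% of the genes tested, and that of Junb 62.6%, above 98.8%. The tenth of genes with the highest GC content differed between libraries as well. Its median log2 difference from the mean of all libraries was 0.03, 0.14 and −0.02 in WT with TGF-β2 and −0.06, −0.08 and −0.01 in Nox4 KO with TGF-β2. In the controls it was −0.03, −0.03 and −0.05 in WT and 0.06, 0.04 and −0.03 in Nox4 KO. Fits that removed a smooth GC trend from each library, chosen after seeing the data, moved the interaction of Jund to −0.43 with a robust curve and to −0.37 with a least-squares curve, with edgeR adjusted p of 0.896 and 0.908. In Nox4 KO the TGF-β2 response of Jund was 0.027 with the least-squares curve, on the other side of 0. With the robust curve its response became 0.37 in WT, where it still passed (edgeR adjusted p = 0.0163). In Nox4 KO it became −0.06 with that curve and did not pass, also with the block (edgeR adjusted p = 0.268). Junb in Nox4 KO became 0.80 and passed (edgeR adjusted p = 0.0360).

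**Figure D4:**
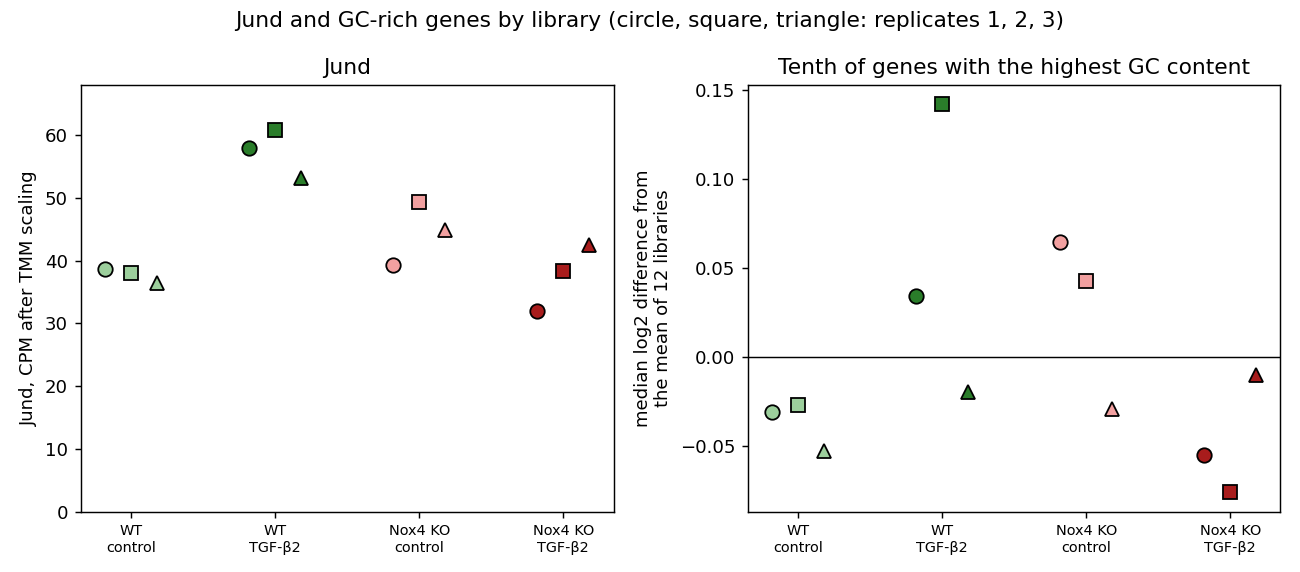
Left, Jund in every library, in CPM after TMM scaling, on a linear axis from 0. Right, the median over the 1089 genes of highest GC content (58.3 to 71.3%) of the log2 difference from each gene's mean of 12 libraries, which ran from −0.08 in a stimulated Nox4 KO library to 0.14 in a stimulated WT library.

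Likeness of profiles was measured as the root mean square difference between log2 CPM profiles, each centred on its mean over the 12 libraries, among 10889 other genes. Crlf2, a cytokine receptor chain, was nearest to Jund at 0.0851, followed by Zfp771 at 0.0975 and C030006K11Rik at 0.133, with GC contents of 65.6, 68.7 and 60.8%. GC-rich genes were near other factors too, such as Bcl3 at 62.6% for Fos and Ier2 at 60.9% for Jun and Junb. Jund's own profile varied by 0.272. The difference grows with how much a gene itself varies, so that it is not compared between factors. Junb, which varied by 0.531, was nearest to Ercc1, at 0.152.

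The nearest genes of the other factors were of several kinds. Egr1 was nearest to its relative Egr3, at 0.148. Jun and Junb both had Ier2, an immediate early gene, among their 3 nearest genes, at 0.140 and 0.157. Fos was nearest to Bcl3, an IκB family member, at 0.207, and Fosb to Vegfa, the vascular growth factor, at 0.213. Egr2 was nearest to Cmklr1, the chemerin receptor, at 0.311, then to Angptl4 and to Lif, a cytokine of the interleukin-6 family. Atf3 was nearest to Hmox1, the heme oxygenase of oxidative stress, at 0.359 and then to the metalloproteinase Mmp3 at 0.370. Its own profile varied by 0.660. Fosl1 was nearest to Ccdc71l at 0.129 and Fosl2 to Arfgef2 at 0.106.

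The make-up of the FOS and JUN families was read per length, as a description without a test. In WT the 3 JUN genes summed to 63.5 ± 2.64 RPKM in control and 114 ± 4.38 RPKM after TGF-β2 (SD, n = 3), and the share of Junb was 37.4% before and 45.6% after. In Nox4 KO the sums were 73.1 ± 11.3 and 86.1 ± 9.48 RPKM, with a Junb share of 36.2% and 45.4%. The share of Jund was 36.3% and 29.4% in WT and 38.7% and 25.6% in Nox4 KO. The FOS genes summed to 50.8 ± 1.46 and 38.4 ± 7.56 RPKM in WT and to 45.9 ± 5.87 and 36.2 ± 4.36 RPKM in Nox4 KO. Fosl2 made up 81 to 85.1% of the FOS sum in every group. Fos was 8.28% of the sum in WT control and 3.79% after TGF-β2, and Fosb 1.60% and 5.83%. In the EGR pair, Egr2 stood at 30.4% of their sum in WT control and 62.2% after TGF-β2, and at 22.4% and 55.5% in Nox4 KO. In the third stimulated Nox4 KO library its share was 49%, so that Egr1 was still the higher of the pair there.

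**Figure D5:**
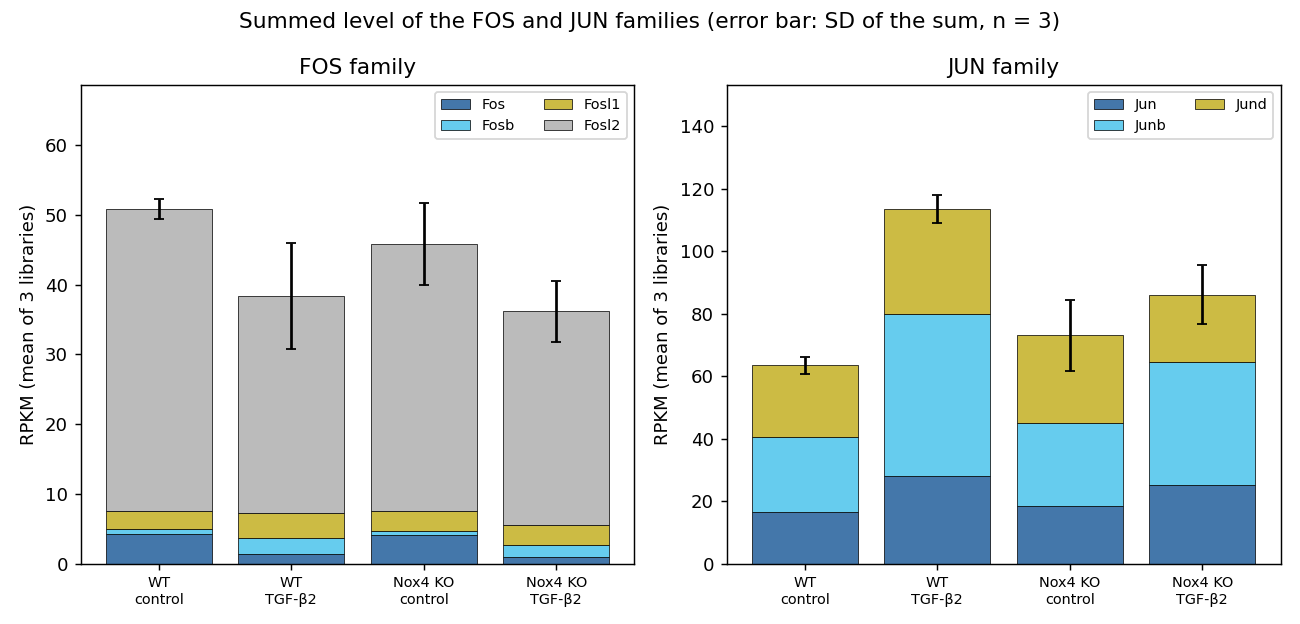
Summed level of the FOS family (left) and the JUN family (right) in each group, in RPKM, stacked by gene as means of 3 libraries, with the SD of the sum as error bar. The JUN sum was 63.5 RPKM in WT control and 114 RPKM after TGF-β2, and Fosl2 filled most of each FOS bar.

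The genes around these factors were read from lists of their regulators, partners and targets, chosen with earlier results of these data known, and are given as counts only. Of SRF and its cofactors, which drive immediate early genes, 3 of 6 rose in WT and 4 of 6 in Nox4 KO and none fell. Over all genes tested, 10.6% rose and 12.3% fell in WT and 15.2% rose and 15% fell in Nox4 KO, and the counts of every list below stand beside these shares. Srf itself rose 1.92-fold in WT and 1.65-fold in Nox4 KO, the ETS cofactor Elk3 1.49-fold and 1.51-fold, and the actin-sensing cofactor Mrtfa 1.32-fold and 1.39-fold, with edgeR adjusted p between 0.00225 and 0.0279. Its median log2 fold change was 0.33 and 0.45, against 0.00 and −0.01 over all genes tested. Of 14 MAP kinases and MAP kinase kinases tested in WT, 3 rose, and of 15 in Nox4 KO, 2 rose and 1 fell. Map2k1, which encodes MEK1, rose 1.5-fold and 1.44-fold, Mapk14, which encodes p38α, rose 1.30-fold and 1.26-fold, and Mapk3, which encodes ERK1, fell 1.42-fold in Nox4 KO and had a log2 fold change of −0.48 in WT (edgeR adjusted p = 0.135).

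Both NAB corepressors of EGR proteins fell in WT, where Egr2 rose, and 1 of them fell in Nox4 KO. Nab1 fell 1.61-fold and Nab2 1.59-fold in WT (edgeR adjusted p = 0.00424 and 0.0328), and in Nox4 KO Nab2 fell 1.75-fold (edgeR adjusted p = 0.0113), with a log2 fold change of −0.37 for Nab1 (edgeR adjusted p = 0.0544). The third gene tested of that list of 4, Egr3, did not pass. Of 13 partners and relatives of AP-1 that were tested, 3 fell in WT and none rose, and 3 fell and 1 rose in Nox4 KO. Nfe2l2, which encodes the antioxidant regulator NRF2, fell 1.51-fold in WT (edgeR adjusted p = 0.00689) and had a log2 fold change of −0.53 in Nox4 KO (edgeR adjusted p = 0.0510). The small MAF gene Mafg rose 1.29-fold in Nox4 KO (edgeR adjusted p = 0.0145). In WT its log2 fold change was 0.32 (edgeR adjusted p = 0.0879).

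Of the 25 other immediate early genes, 8 rose and 8 fell in WT, and 6 rose and 8 fell in Nox4 KO, where 22.9% and 30.3% of all genes tested passed. Gadd45b, a SMAD-responsive stress gene, rose 3.45-fold in WT and 2.38-fold in Nox4 KO, Myc 2.03-fold and 1.67-fold, and Klf10, the TGF-β inducible early gene, 1.97-fold and 2.08-fold (edgeR adjusted p between 0.00101 and 0.00871). Of 15 tested targets of AP-1, 8 rose and 2 fell in each genotype, and the median over the list, on the log2 scale, was 1.11 in WT and 0.92 in Nox4 KO, against 10.6% and 15.2% of all genes higher and medians of 0.00 and −0.01. Il11 rose 13.7-fold and 13.1-fold and Mmp9 11.8-fold and 14.1-fold, whereas Ccnd1, which encodes cyclin D1, fell 4.86-fold and 3.97-fold. Of the 11 EGR1 targets, 3 rose and 3 fell in WT and 3 rose and 4 fell in Nox4 KO. Pdgfb rose 20.4-fold and 13.3-fold, Tgfb1, which stands on the AP-1 list too, 4.35-fold and 3.23-fold, and Ptges fell 2.41-fold and 2.60-fold. Of 8 heat shock genes, which handling stress can raise, Dnajb1 rose and Hsph1 fell in both genotypes. No gene of any of these 8 lists passed the edgeR test between Nox4 KO and WT or in the interaction, where no gene of the whole table did.

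For 5 of the 10 genes the annotated span overlaps that of another gene, and the use of strand in counting is not stated in the sources used here. Jund shares 919 bases with the antisense gene Gm11175, Jun 689 bases with Junos and Atf3 108 bases with Gm24748, none of which is in the count table. Junb shares 351 bases with Prdx2 and Fosl1 2767 bases with Ccdc85b, both of them counted genes on the other strand. These are overlaps of whole gene spans, introns included, and the overlap of the counted exons was not measured. Where exons overlap, reads of the 2 genes cannot be told apart without strand.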

How the data were processed

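RNA from 12 libraries was sequenced as single-end reads. Reads were aligned by the authors with STAR, those with more than 1 location were dropped, and featureCounts assigned the rest to merged exons of protein-coding transcripts. The authors deposited raw counts per gene, without normalization. The submitters' processing notes name CASAVA 1.8.2, STAR 2.4, featureCounts 1.4.6 and GRCm38. All columns were assigned to a sample from the labels.

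RPKM was computed from counts, library totals and GENCODE exon lengths. Genes with a mean of at least 1 RPKM in a group compared were tested with edgeR 4.0.16 (R 4.3.3), by its quasi-likelihood test after TMM scaling and with Benjamini-Hochberg adjustment over all genes tested, on the 6 libraries of each comparison or on all 12 for the interaction. Passed means an adjusted p under 0.05. SEs and 95% intervals were derived from the F statistic. For a single gene, 3 libraries against 3 allow no exact permutation p under 0.1, so no such p is given. The procedure was tested on simulated counts.

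The members and gene lists were chosen with earlier results of these data known. Named genes were the members, Nox4, the 3 genes of each list with the smallest adjusted p among those that passed after TGF-β2, and genes among the 3 most like each member. A result that this rule names is not reported here. The correlations of same-numbered deviations from group means were 0.763, 0.688 and 0.741 between the Nox4 KO groups, and the numbers were taken as pairs there only, from the data and not from the labels.

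Alternatives were DESeq2 1.42.0, the legacy test, other scalings and filters, a fold limit of 2, the replicate block, all 12 libraries in the fit, and each library left out. Offsets for GC content (loess, span 0.3) and leaving out replicate 3 of both Nox4 KO groups were added after seeing the data. The GC curve was first fitted by least squares; as this moved the median of all genes, a robust curve centred on its median was added, and both are given. The precision given comes from the spread between 3 libraries, which holds counting error too. Counting error was not set apart, and counts went down to 63 in a library for Fosb and 69 for Fos. No protein sequences were used here.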

Additional observations from a re-analysis of the deposited data

Results flagged for a closer look

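The response of Jund to TGF-β2 differed between the genotypes by −0.845 on the log2 scale. Each Nox4 KO control library was above each WT control library, and each stimulated Nox4 KO library was below each stimulated WT library. By the interaction term the difference had an edgeR adjusted p = 0.850 over all genes and a DESeq2 adjusted p = 0.00606. Jund has the highest GC content of the 10 genes, and in the fits with GC offsets by a robust or a least-squares curve the difference was −0.43 or −0.37. Nox4 KO against WT was 0.24 in control and −0.60 after TGF-β2, and 0.077 or 0.054 and −0.37 or −0.32 in those fits.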

How the results depend on the processing

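In WT the 6 genes passed under DESeq2, the legacy test, both other scalings, both other filters, the replicate block, the fit to all 12 libraries and the GC offsets. With a fold limit of 2, 4 genes and 832 of all genes passed, and with 1 library left out 6 to 8 genes and 1283 to 3406 of all genes did. Least-squares GC offsets with the block passed 3747 of all genes in WT, and Atf3 besides (0.46 on the log2 scale, adjusted p = 0.0356). Pairing by number was not established in WT, with correlations of same-numbered deviations of 0.0654, 0.413 and 0.523 and 5 of 6 libraries nearest to their own number, and their block gave 3097 of all genes. In Nox4 KO the fold limit left 737 of all genes. The replicate block gave 8 genes and 5832 of all genes, and with GC offsets 7 genes and 6115, or 6420 with the least-squares curve. DESeq2 gave 4 genes and 4070 of all genes, and least-squares GC offsets without the block 4 and 3734. The fit to all 12 libraries gave 5 and 3031, and the fit without replicate 3 of both groups 5 and 4239, against 2 and 3270. Leaving out 1 Nox4 KO library gave 1 to 5 genes and 1157 to 3513 of all genes, with 5 only without the third stimulated library. The block changed no other call of the members in any comparison.

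Between the genotypes DESeq2 passed 28 genes in control, 16 after TGF-β2 and 6 in the interaction, with 1 of the 10, Jund, in each of the last 2. The fit to all 12 libraries passed 1 gene in control, and leaving out 1 library 0 to 1 in each state. None of the values that changed sign had passed with edgeR on separate groups. With 1 library left out, the response of Atf3 in WT was −0.32 to 1.17, and in Nox4 KO that of Fosl1 −0.028 to 0.29 and of Egr1 −0.016 to 0.65 (log2). Jund in Nox4 KO was 0.027 with least-squares GC offsets and 0.026 with the block as well. In control, Nox4 KO against WT was −0.18 to 0.12 for Fos, −0.10 to 0.18 for Fosl1, −0.033 to 0.28 for Jun, −0.066 to 0.30 for Junb, −1.07 to 0.055 for Atf3 and −0.28 to 0.20 for Egr1. After TGF-β2 it was −0.76 to 7.29e-05 for Fosb, −0.19 to 0.11 for Fosl2, −0.26 to 0.039 for Jun, −1.07 to 0.036 for Atf3, −0.29 to 0.38 for Egr1 and −0.49 to 0.17 for Egr2. There Fosl2 was 0.013 and Egr1 −0.0022 with the replicate block, and Fosl2 was 0.010 and 0.038 with GC offsets without and with the block, or 0.0042 and 0.031 with the least-squares curve. The interaction was −0.27 to 0.50 for Fosb, −0.71 to 0.78 for Atf3, −0.23 to 0.43 for Egr1 and −0.20 to 0.88 for Egr2. The cause of these changes was not tested. With 2 libraries in a group, the spread came from the other libraries of the fit too.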
